A study of Mus musculus with 7 samples.

Results

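The 9 genes described here regulate the change from embryonic to adult haemoglobin. They were chosen by name, not by their values, and were found by matching the 39017 gene identifiers of the count files to GENCODE M21 symbols on the mm10 build. Of these genes, 4 encode transcription factors that repress embryonic globin genes or drive adult ones (Bcl11a, Zbtb7a, Sox6 and Klf1). The other 5 belong to a group of RNA-binding and chromatin proteins that is high in fetal cells (Lin28b, Hmga2, Igf2bp1, Igf2bp2 and Igf2bp3). All 9 passed the filter on low counts and stood among the 15800 genes tested.

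The data are read counts per gene from RNA of 7 fetal livers taken from C57BL/6 mice at E12.5 and prepared as single-cell suspensions of whole liver. Taf10 encodes a subunit of TFIID and SAGA, complexes that help start transcription by RNA polymerase II. The 2 TAF10KO livers carried EpoCre, in which Cre is expressed under control of the erythropoietin receptor gene and so acts in erythroid cells, with lox-flanked Taf10; their titles name both alleles as lox, and the series text names lox over knockout. Deletion of Taf10 by cell type was not measured in these data. With a knockout allele, liver cells in which Cre did not act would carry a single working copy. The 3 TAF10HET livers also carried EpoCre: replicate 1 had lox and wild-type alleles, and replicates 2 and 3 had wild-type and knockout alleles. The 2 WT livers were lox/lox without Cre. The titles carry 2 codes in the form of a date, whose meaning the labels do not state. Replicate 2 of TAF10KO, replicates 2 and 3 of TAF10HET and replicate 2 of WT have the second code, and replicate 1 of each genotype has the first. Allele type within TAF10HET therefore cannot be told apart from date code.

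Mouse erythroid cells first make the embryonic globins Hbb-y, Hbb-bh1 and Hba-x in the yolk sac lineage, and later the adult globins in the fetal liver lineage. BCL11A, ZBTB7A (also known as LRF) and SOX6 bind DNA at the globin loci and silence embryonic globin genes in adult-type cells, and KLF1 (EKLF) binds CACCC boxes at erythroid promoters and activates, among others, the adult beta-globin gene, Bcl11a and Zbtb7a. LIN28B blocks the maturation of let-7, a family of miRNAs that pair with short sites in the 3′ UTRs of their targets. HMGA2 and the IGF2BP proteins are let-7 targets, and LIN28B, IGF2BP1 and HMGA2 have been tied to fetal-type haemoglobin in human erythroid cells.

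The sequences below show the let-7 seed and its matches in the fetal group. The RefSeq mouse table held 10 mature miRNAs with the let-7 seed, bases 2 to 8 from the 5′ end, shown in capitals for 3 of them (GRCm38.p6).
mmu-let-7a-5p: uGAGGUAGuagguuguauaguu
mmu-let-7g-5p: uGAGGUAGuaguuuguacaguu
mmu-let-7i-5p: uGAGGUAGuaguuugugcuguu
The 7 bases that pair with this seed, CTACCTC on the transcript's strand, were counted in the longest annotated 3′ UTR of each gene. Lin28b, Hmga2 and Igf2bp1 held 4 such sites each, and Igf2bp2 and Igf2bp3 held 1 each. Bcl11a, Zbtb7a, Sox6 and Klf1 held 0, as did most genes with UTRs of like length, of which 18.5%, 20.6%, 33.5% and 3.15% had a site. Among 13985 genes with a 3′ UTR, 10.6% held at least 1 site. A long UTR holds more matches by length alone: of genes with UTRs of like length, 24.9% had a site for Lin28b, 17.3% for Hmga2, 35.7% for Igf2bp1, 12.9% for Igf2bp2 and 14.1% for Igf2bp3. As many as 4 sites were found in 0.366%, 0.158% and 0.425% of genes with UTRs as long as those of Lin28b, Hmga2 and Igf2bp1. Below, 1 site of each of these 5 genes is shown with the bases beside it, the seed match in capitals (mm10, 5′ to 3′ on the transcript).
Lin28b site 1, chr10:45381022-45381043, minus strand: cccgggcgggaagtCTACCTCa
Hmga2 site 1, chr10:120364224-120364245, minus strand: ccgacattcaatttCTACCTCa
Igf2bp1 site 1, chr11:95961778-95961799, minus strand: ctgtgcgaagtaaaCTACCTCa
Igf2bp2 site 1, chr16:22059473-22059494, minus strand: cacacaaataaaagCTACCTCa
Igf2bp3 site 1, chr6:49086787-49086808, minus strand: gcatttttactcaaCTACCTCa
All 5 of these sites are followed by an A. Of the 4 sites of each gene, 1 was so followed in Lin28b, 1 in Hmga2 and 3 in Igf2bp1. A match is a description of the letters and was not tested as a binding site.

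Promoters are shown for Zbtb7a, Klf1 and Sox6, the 3 members whose levels moved most alike across libraries. Each is the part of the 250 bases before the RefSeq start that lies in no annotated exon (GRCm38.p6). Capitals mark CCNCNCCC, a loose pattern that takes in some CACCC boxes and also GC-rich runs without CACCC. They also mark AGATAA or TGATAA, the GATA motif. Both were searched on both strands, and overlapping matches are counted as 1 run. CACCC letters outside the pattern stay in lower case, as in the Klf1 and Zbtb7a stretches.
Zbtb7a, chr10:81136021-81136270, plus strand: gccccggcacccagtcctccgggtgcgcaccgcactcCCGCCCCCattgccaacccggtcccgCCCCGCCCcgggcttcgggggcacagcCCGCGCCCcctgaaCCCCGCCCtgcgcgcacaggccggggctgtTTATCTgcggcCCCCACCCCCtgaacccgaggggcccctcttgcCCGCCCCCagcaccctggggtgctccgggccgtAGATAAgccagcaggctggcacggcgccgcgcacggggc
Klf1, chr8:84901732-84901927, plus strand: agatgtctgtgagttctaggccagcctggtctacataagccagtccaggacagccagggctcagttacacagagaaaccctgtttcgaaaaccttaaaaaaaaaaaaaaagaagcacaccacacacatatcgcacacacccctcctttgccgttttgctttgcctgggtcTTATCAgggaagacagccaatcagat
Sox6, chr7:116038797-116038994, minus strand: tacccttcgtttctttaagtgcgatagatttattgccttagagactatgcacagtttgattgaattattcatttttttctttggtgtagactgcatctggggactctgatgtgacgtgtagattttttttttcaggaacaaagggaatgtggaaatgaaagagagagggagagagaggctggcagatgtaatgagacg
The Zbtb7a stretch held 6 runs of CCNCNCCC and 2 GATA motifs, the Klf1 stretch 0 and 1, and the Sox6 stretch 0 of either motif. Of 32851 mouse promoters with a full window, 45.9% held CCNCNCCC and 16.6% a GATA motif. Sox6 has 6 promoters in the table, and the most upstream was used. The RefSeq promoter table matched 8 of the 9 members, all but Igf2bp1.

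Gene counts ran from 18008391 to 43401474 per library. Taf10, the targeted gene, had 37.8 and 43.8 CPM (counts scaled to a common library total with TMM factors) in TAF10KO livers, 78.0, 63.6 and 63.0 CPM in TAF10HET livers, and 71.9 and 96.4 CPM in WT livers. TAF10KO differed from WT by −1.04 on the log2 scale (SE 0.168, edgeR adjusted p = 0.0542), and all TAF10KO values lay below the others. The 8 late erythroid and 10 hepatoblast markers were all detected, as they should be in fetal liver. Libraries of the same date code deviated together from their genotype means, with correlations across genes of 0.40 to 0.74, so the date code was a term of the fit. The labels do not say that the livers came from separate litters, and p-values measure the spread between these livers only.

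By level per transcript length, Klf1 stood far above the other members. Its mean over the 7 libraries was 232 RPKM (range 161 to 319), above 98.8% of tested genes. Zbtb7a averaged 22.7 RPKM (15.8 to 30.8) and Hmga2 17.2 (11.2 to 25.8). Igf2bp1 averaged 11.0 RPKM (9.74 to 11.9), Sox6 9.85 (6.37 to 13.2), Lin28b 8.29 (6.77 to 9.95), Bcl11a 8.19 (5.87 to 9.77) and Igf2bp2 7.61 (5.22 to 11.2). Igf2bp3 was lowest at 4.87 RPKM (4.20 to 5.39), still above 55.1% of tested genes. The ranges of neighbours in this order overlapped, except that of Klf1, which lay wholly above that of Zbtb7a. Lengths are the union of annotated exons, so a gene with long unused exons is placed too low.

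**Figure D1:**
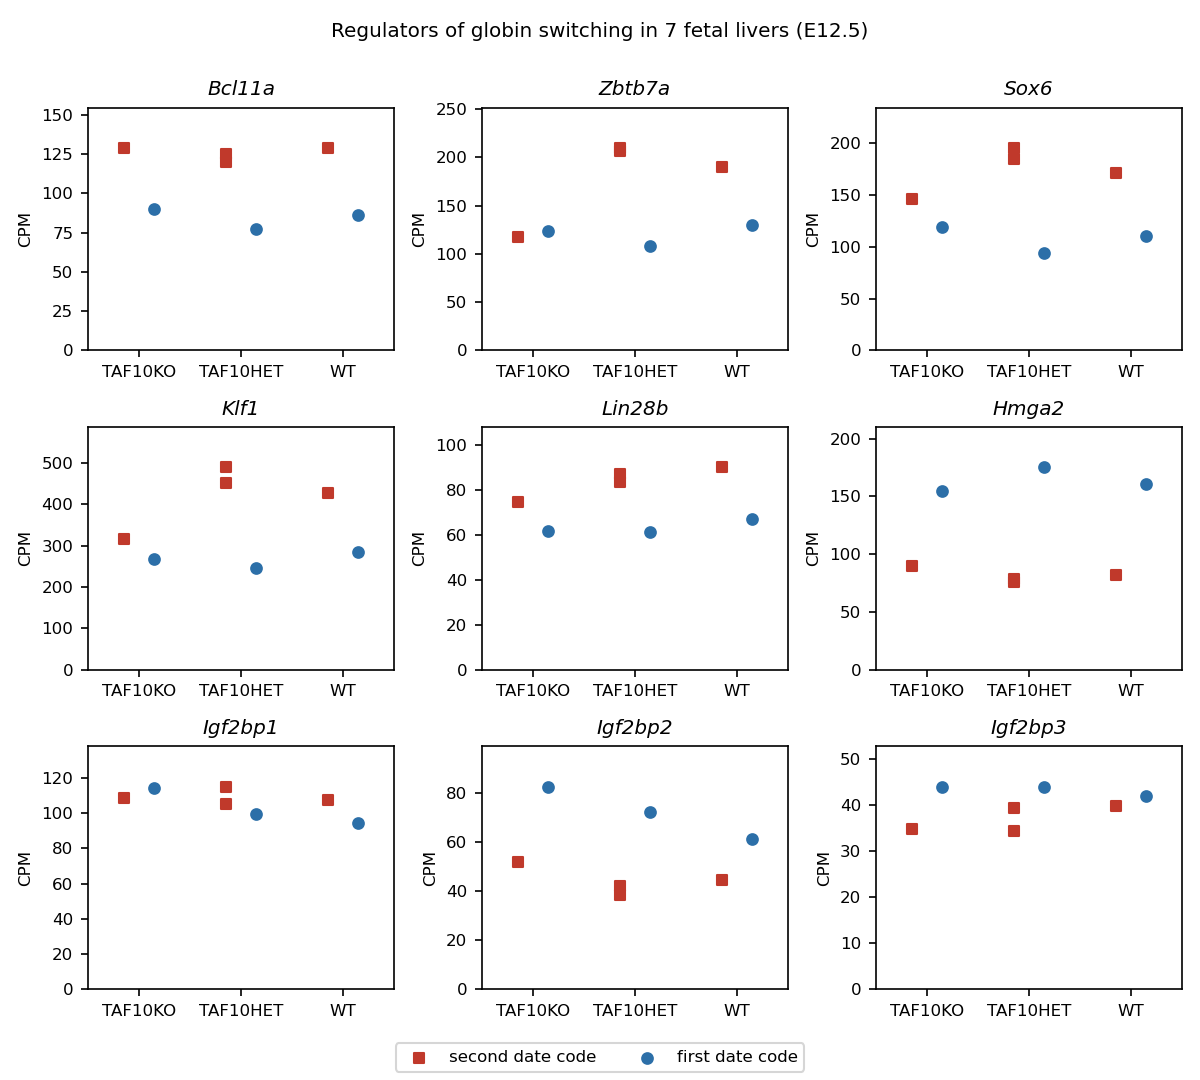
CPM (y axis, linear, from 0) of the 9 regulators, 1 panel per gene, with 1 point per liver in TAF10KO, TAF10HET and WT (x axis), squares for the second date code and circles for the first. Klf1 spans 247 to 489 CPM, and Hmga2 is high in all 3 livers of the first code and low in all 4 of the second.

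Between TAF10KO and WT livers none of the 9 regulators was called, while 2 of 3 embryonic globin transcripts fell. The count was 0 of 9 (against 0.608% of all genes tested, edgeR with the date code as a term, adjusted p under 0.05). Their log2 differences lay between −0.36 for Zbtb7a and 0.32 for Igf2bp2, with standard errors of 0.0786 to 0.218. At an unadjusted p under 0.05 there were 2 of 9, Lin28b and Igf2bp2, beside 2830 of 15800 genes, and DESeq2 also called 0. With no filter on low counts, 2 of 9 were called, and the count over all genes rose from 96 to 1399. Without TAF10KO replicate 1, which leaves 1 liver in that arm, Zbtb7a was at −0.80 and Klf1 at −0.53. Over all fits with 1 library left out, Zbtb7a ranged from −0.80 to −0.00012 and Klf1 from −0.53 to −0.021. In the main fit the median of the 9 members was −0.04, beside 0.03 over all genes. Groups did not overlap for 2 of 9 members, against 29.8% of all genes. With group as the only term, edgeR called 0 of 15800 genes between TAF10KO and WT, though 729 had an unadjusted p under 0.05 and DESeq2 called 84. The adjusted p of every member was then 0.999983 in edgeR.

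Among the repressors of embryonic globin, Bcl11a (ENSMUSG00000000861, chr11:24078056-24174123, plus strand) had 90.1 and 129 CPM in TAF10KO livers, 77.3, 120 and 125 CPM in TAF10HET livers, and 86.0 and 129 CPM in WT livers. The first value of each genotype, from the first date code, is the low one, and the genotypes overlap. TAF10KO minus WT came to 0.04 on the log2 scale (SE 0.0786, adjusted p = 0.853), with 0.0023 on the second code and 0.07 on the first.

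Zbtb7a (ENSMUSG00000035011, chr10:81135220-81152995, plus strand) had 123 and 118 CPM in TAF10KO livers, 108, 209 and 206 CPM in TAF10HET livers, and 130 and 190 CPM in WT livers. Both TAF10KO values lie below both WT values, but on the first code the 3 genotypes are close together, and the gap is on the second code. Fitted over both codes, TAF10KO lay −0.36 from WT on the log2 scale (SE 0.218, adjusted p = 0.432), with −0.69 on the second code and −0.07 on the first. Without TAF10KO replicate 1 it was −0.80, but the TAF10KO arm is then 1 liver of the second code, assumed to vary like the other groups. Over all fits with 1 library left out it ranged from −0.80 to −0.00012. With no filter on low counts it was −0.32 (edgeR adjusted p = 0.0389), past the threshold.

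Sox6 (ENSMUSG00000051910, chr7:115470872-116038796, minus strand) had 120 and 146 CPM in TAF10KO livers, 94.5, 196 and 185 CPM in TAF10HET livers, and 110 and 171 CPM in WT livers. The TAF10KO liver was the highest of its date code on the first and the lowest on the second. For TAF10KO against WT the fitted value was −0.04 on the log2 scale (SE 0.161, adjusted p = 0.917), with −0.23 on the second code and 0.12 on the first.

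Klf1 (ENSMUSG00000054191, chr8:84901928-84905291, plus strand) had 268 and 316 CPM in TAF10KO livers, 247, 489 and 452 CPM in TAF10HET livers, and 283 and 428 CPM in WT livers. On the second code the TAF10KO liver was the lowest of 4, and on the first the 3 livers lay close together. Relative to WT, TAF10KO stood at −0.25 on the log2 scale (SE 0.160, adjusted p = 0.452), with −0.44 on the second code and −0.08 on the first. Without TAF10KO replicate 1, again with 1 liver in that arm, it was −0.53. Over all fits with 1 library left out it ranged from −0.53 to −0.021.

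In the fetal group, Lin28b (ENSMUSG00000063804, chr10:45376620-45486395, minus strand) had 61.8 and 74.6 CPM in TAF10KO livers, 61.4, 83.6 and 87.1 CPM in TAF10HET livers, and 67.3 and 90.2 CPM in WT livers. The TAF10KO liver lay below the WT liver on both codes, by −0.27 on the second and −0.12 on the first on the log2 scale. The fitted difference was −0.20 (SE 0.0813, adjusted p = 0.263).

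Hmga2 (ENSMUSG00000056758, chr10:120361275-120476469, minus strand) encodes an architectural chromatin protein. It had 154 and 89.4 CPM in TAF10KO livers, 175, 78.8 and 75.9 CPM in TAF10HET livers, and 160 and 82.4 CPM in WT livers. Every first-code liver lies above every second-code liver, and the genotypes overlap. Between TAF10KO and WT the log2 difference was 0.03 (SE 0.107, adjusted p = 0.898).

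The 3 IGF2BP genes encode proteins that bind and stabilise mRNAs. Igf2bp1 (ENSMUSG00000013415, chr11:95957163-96005940, minus strand) had 114 and 109 CPM in TAF10KO livers, 99.8, 105 and 115 CPM in TAF10HET livers, and 94.4 and 108 CPM in WT livers. Both TAF10KO values exceed both WT values, but on the second code by a log2 difference of only 0.01, against 0.28 on the first (fitted 0.15, SE 0.0945, adjusted p = 0.446). Igf2bp2 (ENSMUSG00000033581, chr16:22059009-22163299, minus strand) had 82.7 and 51.9 CPM in TAF10KO livers, 72.3, 38.6 and 42.3 CPM in TAF10HET livers, and 61.6 and 44.6 CPM in WT livers. The TAF10KO liver was the highest of its date code on both codes. The log2 difference from WT was 0.32 (SE 0.106, edgeR adjusted p = 0.193), with 0.22 on the second code and 0.42 on the first; with no filter on low counts it was 0.36 (adjusted p = 0.0217).

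Igf2bp3 (ENSMUSG00000029814, chr6:49085223-49214957, minus strand) had 43.9 and 34.7 CPM in TAF10KO livers, 43.9, 34.3 and 39.4 CPM in TAF10HET livers, and 41.9 and 39.9 CPM in WT livers. It was the lowest member, and its genotypes overlap, with −0.07 on the log2 scale between TAF10KO and WT (SE 0.106, adjusted p = 0.782). Its exons share 1529 bases with those of Malsu1 on the opposite strand. Bcl11a shares 316 bases, Hmga2 140 and Igf2bp1 43 with antisense genes. The strand setting of the counting is not known, so reads from these stretches may be missing or belong to the other gene.

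Of the globins, 2 of 3 embryonic and 0 of 4 adult ones were called between TAF10KO and WT. Hbb-y, the embryonic beta-like epsilon-type globin, had 1071 and 1345 CPM in TAF10KO livers, 1964, 3365 and 3014 CPM in TAF10HET livers, and 1934 and 2900 CPM in WT livers. Hba-x, the embryonic zeta globin, had 113 and 153 CPM in TAF10KO livers, 281, 893 and 847 CPM in TAF10HET livers, and 317 and 801 CPM in WT livers. Every TAF10KO value of both genes lies below every other liver. Hbb-y fell in TAF10KO against WT by 0.98 on the log2 scale (SE 0.127, adjusted p = 0.0300), and Hba-x fell by 1.90 (SE 0.275, adjusted p = 0.04996). Hba-x lies at the threshold. Its call was lost with globin genes left out of library totals (edgeR adjusted p = 0.0503) and with non-robust dispersions (0.0514). Both calls were lost with group as the only term. They were also lost without WT replicate 1 (adjusted p = 0.345 for Hbb-y and 0.322 for Hba-x), WT replicate 2 (0.655 and 0.637), TAF10HET replicate 2 (0.0530 and 0.107) or TAF10HET replicate 3 (0.134 and 0.139). Hbb-bh1, the other embryonic beta-like globin, had 187 and 339 CPM in TAF10KO livers, 432, 764 and 925 CPM in TAF10HET livers, and 233 and 493 CPM in WT livers, and its log2 difference of −0.43 from WT was not called (SE 0.117, adjusted p = 0.138), though DESeq2 called it (−0.44, adjusted p = 0.0143). In these whole livers, fewer cells of a type and less RNA per cell cannot be told apart. Late erythroid markers summed to 8050 and 9913 CPM in TAF10KO livers, 7810, 14947 and 13022 CPM in TAF10HET livers, and 8623 and 12576 CPM in WT livers, with 0 of 8 called against WT by edgeR and 3 at an unadjusted p under 0.05. Endothelial markers summed to 508 and 241 CPM in TAF10KO livers and 381 and 187 CPM in WT livers, with 7 of 8 higher and 1 lower. Of these 8, Pecam1 (log2 difference 0.64, edgeR adjusted p = 0.0438) and Flt1 (1.18, adjusted p = 0.0244) rose. Mesenchymal markers were higher in 8 of 8 (median 0.55), with 0 called and 0 at an unadjusted p under 0.05. Megakaryocyte markers were higher in 5 of 6 (median 0.23), with 0 called and 1 at an unadjusted p under 0.05. Macrophage markers summed to 193 and 114 CPM in TAF10KO livers and 238 and 146 CPM in WT livers, with 7 of 8 lower, 0 called and 5 at an unadjusted p under 0.05. Hepatoblast markers summed to 20133 and 12609 CPM in TAF10KO livers and 19782 and 16388 CPM in WT livers, with 8 of 10 lower, 0 called and 5 at an unadjusted p under 0.05. The part of these cell types in the results was not tested.

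**Figure D2:**
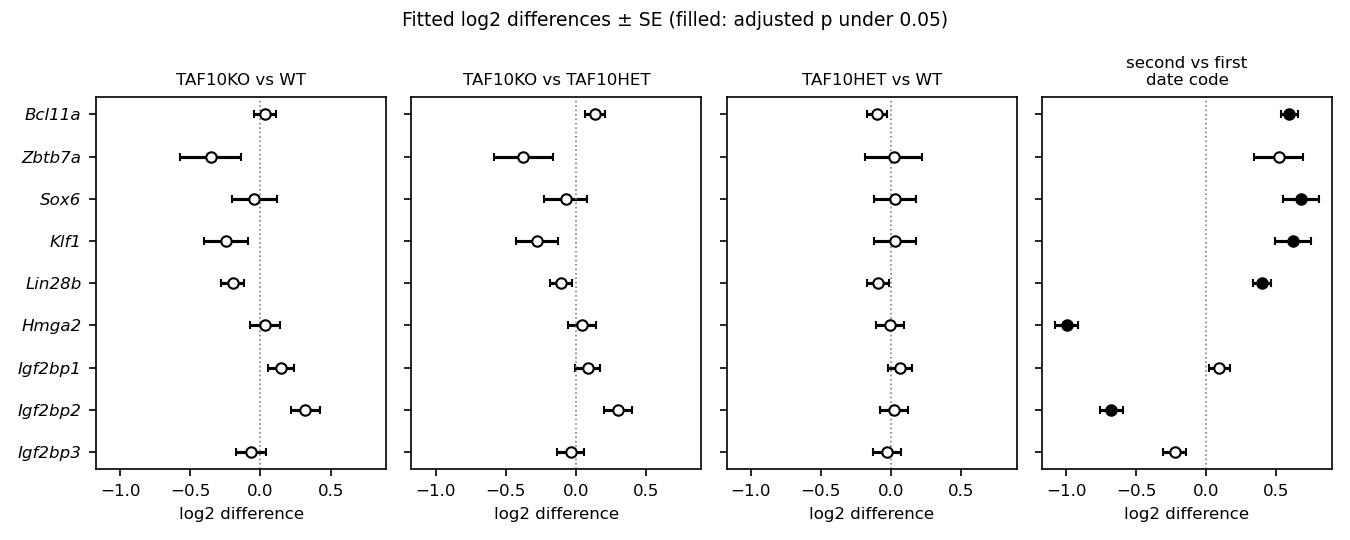
Log2 differences (x axis) with their standard errors (bars) for the 9 regulators (y axis), 1 panel per comparison, with filled points for genes called. Between genotypes the regulators lie between −0.37 and 0.32 and none was called, whereas between date codes they run from −0.996 for Hmga2 to 0.67 for Sox6.

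Differences of the members from WT spanned a narrower range in the heterozygous livers. That of Bcl11a was larger in size there (−0.10, against 0.04 in TAF10KO). TAF10HET values of Zbtb7a and Klf1 lay below WT on the first code and above it on the second, which a fit over both codes averages. The sizes were not compared in a test. Against WT, 0 of 9 members were called in TAF10HET livers, beside 0.00633% of all genes, which is the single gene Hbb-bt. Their log2 differences lay between −0.10 for Bcl11a and 0.06 for Igf2bp1 (SE 0.0729 to 0.202), and every adjusted p was 0.999 in edgeR. At an unadjusted p under 0.05 there were also 0, and DESeq2 called 0. Groups did not overlap for 0 of 9 members, against 9.28% of all genes. Outside the members, Hbb-bh1 was higher in TAF10HET than in WT livers. The main edgeR fit did not call it, but DESeq2 did (log2 difference 0.83, adjusted p = 9.6e-10). Its fall in TAF10KO against TAF10HET, given below, includes this difference.

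TAF10KO livers were also set against TAF10HET livers, which share EpoCre. Again 0 of 9 members were called, by edgeR or DESeq2, beside 1.61% of all genes in edgeR; 1 of them, Igf2bp2, had an unadjusted p under 0.05. The groups overlapped for all 9, against a share of 20.1% of all genes without overlap. The widest difference was −0.37 for Zbtb7a (SE 0.208, adjusted p = 0.415). Igf2bp2 had 0.30 (SE 0.0972, adjusted p = 0.181), Bcl11a 0.14 (SE 0.0726, adjusted p = 0.393) and Klf1 −0.28 (SE 0.151, adjusted p = 0.401). Without TAF10KO replicate 1, which leaves 1 liver in that arm, Zbtb7a was at −0.76 and Klf1 at −0.52. Over all fits with 1 library left out, Zbtb7a ranged from −0.76 to 0.041 and Klf1 from −0.52 to −0.013. All 3 embryonic globins fell in TAF10KO against TAF10HET, Hbb-y by 1.08 (adjusted p = 0.0113), Hbb-bh1 by 1.26 (adjusted p = 0.00475) and Hba-x by 1.96 (adjusted p = 0.0272) on the log2 scale. With no replicate block none of these 3 calls held in edgeR (adjusted p = 0.694 for Hbb-y, 0.839 for Hbb-bh1 and 0.739 for Hba-x). With only the groups compared, those of Hbb-y (edgeR adjusted p = 0.0864) and Hba-x (0.0925) were lost. The Hbb-bh1 call held without any 1 library. That of Hbb-y was lost without TAF10HET replicate 3 (adjusted p = 0.0889) or either WT liver (0.0760 and 0.0850), and that of Hba-x without TAF10HET replicate 2 (0.103), replicate 3 (0.122) or either WT liver (0.0825 and 0.0888). The 3 genotype comparisons share libraries, so their values are not independent. Taf10, Hbb-y, Hbb-bh1, Hbb-bt and Sox6 are all on chromosome 7, and TAF10HET livers alone carry a wild-type Taf10 allele, so linked alleles and Taf10 dose cannot be told apart there.

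The regulators differed between date codes. Between second-code and first-code livers, 6 of 9 members were called, 4 higher and 2 lower, beside 41.4% of all genes tested (18.7% higher and 22.7% lower). Their median was 0.40, beside 0.02 over all genes. The groups did not overlap for 7 of 9 members, against 42.4% of all genes. A large share of all genes thus moved with the code, and the members are described here as part of that background. Each code covers livers of all 3 genotypes, 4 on the second and 3 on the first.

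Sox6, Klf1 and Bcl11a rose on the second code, and Zbtb7a was not called. Sox6 averaged 174 ± 21.3 CPM on the second code (SD, n = 4) and 108 ± 12.8 CPM on the first (SD, n = 3), and rose by a log2 difference of 0.67 (SE 0.129, edgeR adjusted p = 0.00619). Klf1 averaged 421 ± 74.5 CPM on the second code and 266 ± 18.4 CPM on the first, and rose by 0.62 (SE 0.127, adjusted p = 0.00822), a call lost without WT replicate 1 (adjusted p = 0.0550) or 2 (0.0586). Bcl11a averaged 125 ± 4.16 CPM on the second code and 84.5 ± 6.51 CPM on the first, and rose by 0.59 (SE 0.0620, adjusted p = 0.000551). Values of the 4 livers do not overlap those of the 3 for any of these genes. Zbtb7a averaged 181 ± 42.9 CPM on the second code and 120 ± 11.1 CPM on the first; its difference of 0.52 was not called (SE 0.175, adjusted p = 0.0519), and its TAF10KO liver of the second code lay within the first-code range. Without TAF10KO replicate 1 or 2 its difference was 0.74 in both cases. Either fit leaves 1 TAF10KO liver, which the genotype term takes up. Both therefore read the date difference from the same TAF10HET and WT livers and are not separate checks.

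The fetal group did not move one way. Hmga2 averaged 81.6 ± 5.84 CPM on the second code and 163 ± 10.6 CPM on the first, and fell by 0.996 on the log2 scale (SE 0.0820, adjusted p = 0.000285). Igf2bp2 averaged 44.4 ± 5.61 CPM on the second code and 72.2 ± 10.6 CPM on the first, and fell by 0.68 (SE 0.0818, adjusted p = 0.000945). Lin28b, which keeps let-7 low, went the other way: it averaged 83.9 ± 6.76 CPM on the second code and 63.5 ± 3.34 CPM on the first, and rose by 0.40 (SE 0.0639, adjusted p = 0.00301). Igf2bp1 averaged 109 ± 4.13 CPM on the second code and 103 ± 10.4 CPM on the first (log2 difference 0.09, SE 0.0737, adjusted p = 0.348). Igf2bp3 averaged 37.1 ± 2.99 CPM on the second code and 43.3 ± 1.15 CPM on the first (−0.23, SE 0.0823, adjusted p = 0.0599), with no overlap but no call. Mature let-7 was not measured.

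Markers of several cell types moved with the date code. All 8 late erythroid markers rose on the second code, with a median log2 difference of 0.58. All 8 mesenchymal and all 8 endothelial markers fell, with medians of −2.65 and −0.96. Of 10 hepatoblast markers 8 fell, of 8 macrophage markers 6 fell, and of 7 early progenitor markers 4 rose and 1 fell. Mesenchymal markers summed to 345, 214, 213 and 192 CPM in the 4 second-code livers (TAF10KO, TAF10HET, TAF10HET, WT) and to 1625, 2543 and 1399 CPM in the 3 first-code livers (TAF10KO, TAF10HET, WT). The first-code sums are therefore all higher, and no marker of these lists was at 0. Dates of dissection, embryo age within the stage and cell make-up cannot be told apart, and their part in the members' differences was not tested.

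**Figure D3:**
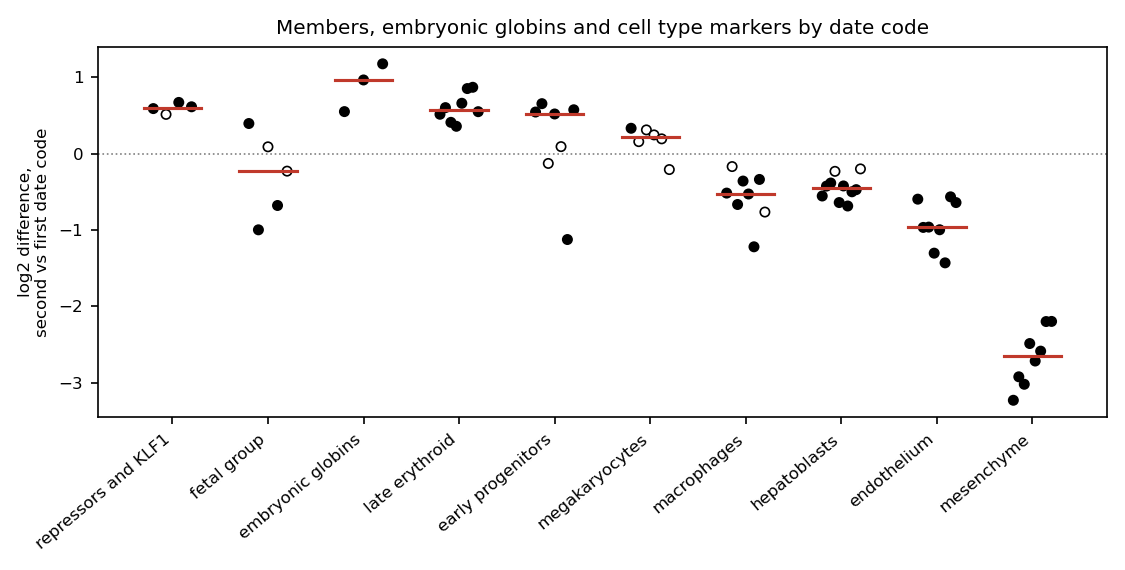
Log2 difference of the second from the first date code (y axis), 1 point per gene, for the regulators, the embryonic globins and the markers of 7 cell types (x axis); filled points were called and red lines are medians. Late erythroid markers lie above 0 around a median of 0.58, and mesenchymal markers lie lowest around −2.65.

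The size of the date difference was compared within each genotype. For Zbtb7a the second code minus the first gave a log2 difference of −0.065 in TAF10KO, 0.95 in TAF10HET and 0.55 in WT. For Sox6 it gave 0.29 in TAF10KO, 1.01 in TAF10HET and 0.63 in WT, and for Klf1 0.24, 0.93 and 0.59. In each of these 3 genes the difference was smallest in size in TAF10KO livers, as it also was for Bcl11a, Lin28b, Hmga2, Igf2bp1 and all 3 embryonic globins. Igf2bp3 had its largest there (−0.34, against −0.26 in TAF10HET and −0.073 in WT), and Igf2bp2 lay between. Outside the members, Slc4a1 (0.096, 0.89 and 0.46) and all mesenchymal markers were also smallest in TAF10KO, but Lyve1 was largest (−1.99, −1.10 and −1.28). The share over all genes was not counted. Bcl11a was more even, with 0.51 in TAF10KO, 0.66 in TAF10HET and 0.58 in WT, and so was Lin28b, with 0.27, 0.48 and 0.42. Hmga2 was lower on the second code in each genotype, at −0.79 in TAF10KO, −1.18 in TAF10HET and −0.96 in WT. These within-genotype values come from 1 liver per code, or 2 for TAF10HET on the second.

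A fit with 1 mean per genotype and date code, added after these values were seen, tested whether the date difference itself differed between genotypes. It has 1 liver in every TAF10KO and WT cell and 1 residual degree of freedom, from the 2 TAF10HET livers of the second code, and assumes that every other liver varies as little as they do. Its p-values therefore carry no replicate check of TAF10KO or WT. Between TAF10KO and WT, Zbtb7a had a difference of differences of −0.62 (SE 0.102, edgeR adjusted p = 0.0276), 1 of 9 members called beside 1.15% of all genes. That call was lost with DESeq2 (−0.57, adjusted p = 0.999993) and with median-of-ratios factors (−0.57, adjusted p = 0.0517). Klf1 had −0.36 (adjusted p = 0.167) and Sox6 −0.34 (adjusted p = 0.177), neither called. Between TAF10KO and TAF10HET 4 of 9 members were called, beside 15.4% of all genes: Zbtb7a at −1.01 (adjusted p = 0.000458), Sox6 at −0.72 (adjusted p = 0.00254), Klf1 at −0.69 (adjusted p = 0.00306) and Hmga2 at 0.39 (adjusted p = 0.0306). Between TAF10HET and WT 0 of 9 were called, beside 0.646%. The Hmga2 call was lost with DESeq2 (0.44, adjusted p = 0.229).

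**Figure D4:**
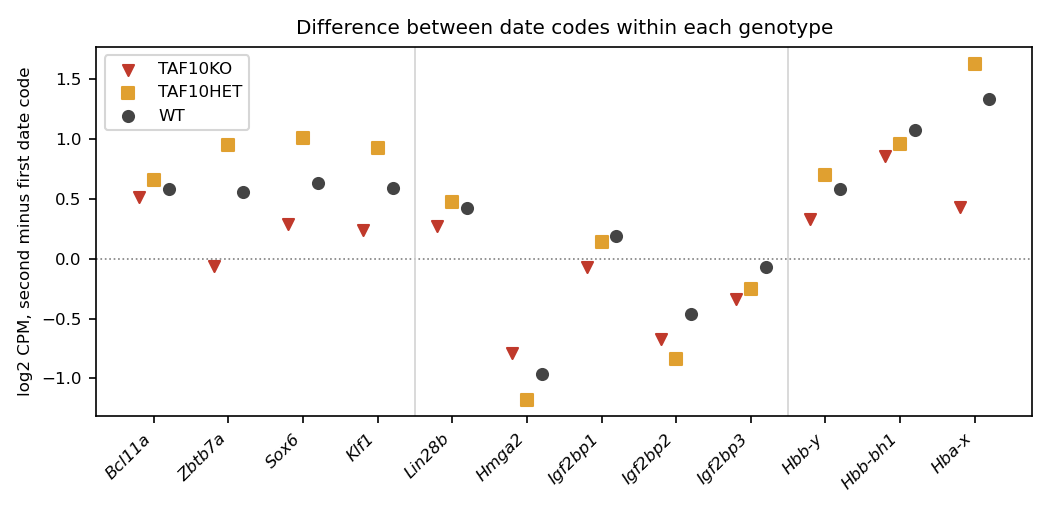
Second minus first date code as a log2 difference (y axis) within TAF10KO, TAF10HET and WT (colours and shapes), for the 9 regulators and 3 embryonic globins (x axis); TAF10KO and WT have 1 liver per code and TAF10HET has 2 on the second. Zbtb7a, Sox6 and Klf1 have their smallest difference in TAF10KO, while Hmga2 lies below 0 in all 3 genotypes.

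Genes that act with or below the members were also examined by genotype and date code. KLF1 target genes numbered 14 in the list, of which 13 were in the files and 12 were tested. None was called between TAF10KO and WT in edgeR (0 of 12, with 5 at an unadjusted p under 0.05), and 10 of 12 were lower with a median of −0.33. Slc4a1, the anion exchanger of the red cell membrane and the most abundant of them, had 3325 and 3553 CPM in TAF10KO livers, 3143, 6324 and 5354 CPM in TAF10HET livers, and 3612 and 4967 CPM in WT livers (log2 difference from WT −0.29, adjusted p = 0.475). Between date codes 10 of 12 rose, with a median of 0.52, Slc4a1 by 0.52 (adjusted p = 0.0324). Bcl11a and Zbtb7a are themselves in this list.

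NuRD and CoREST are corepressor complexes that BCL11A and ZBTB7A recruit. Of their 14 subunit genes, 0 were called between TAF10KO and WT in edgeR (3 at an unadjusted p under 0.05, median 0.05), while 5 rose on the second date code and 0 fell (median 0.24). Of all genes, 18.7% rose and 22.7% fell between the codes, and the counts by code of this and the next 3 lists stand beside those shares. Rbbp4, a histone-binding subunit and the most abundant, had a log2 difference of −0.14 between TAF10KO and WT (adjusted p = 0.479). Of 24 other regulators of globin switching, 0 were called between TAF10KO and WT in edgeR (2 at an unadjusted p under 0.05, median 0.02); Tal1, an erythroid transcription factor and the most abundant, had −0.12 (adjusted p = 0.687). Between date codes 13 of the 24 rose, Tal1 by 0.67 (adjusted p = 0.00337), and 3 fell.

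The let-7 pathway around LIN28B gave no call between TAF10KO and WT. Of 14 genes for LIN28 and miRNA processing, 0 were called in edgeR and 0 had an unadjusted p under 0.05 (median 0.03), and 4 rose and 1 fell between date codes. Hnrnpa1, an RNA-binding protein and the most abundant of them, had a log2 difference of −0.24 between TAF10KO and WT (adjusted p = 0.285). Of 17 fetal growth genes and known let-7 targets, 0 were called between TAF10KO and WT in edgeR (4 at an unadjusted p under 0.05, median 0.01), and between date codes 6 rose and 6 fell (median −0.16). H19, an imprinted fetal RNA and the most abundant of them, had 2792 and 1627 CPM in TAF10KO livers, 2837, 1635 and 1734 CPM in TAF10HET livers, and 2849 and 1795 CPM in WT livers. Like Hmga2 and Igf2bp2 it fell on the second code, by 0.73 (adjusted p = 0.000520), and it had −0.09 between TAF10KO and WT (adjusted p = 0.684). Of the 4 adult globins, 0 were called between TAF10KO and WT in edgeR (2 at an unadjusted p under 0.05), with a median of −0.19.

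Likeness between genes was measured as the root mean square distance of log2 CPM, each centred on its mean over the 7 libraries, among 9246 genes. Klf1 and Sox6 were each other's nearest member at 0.0954, and Klf1 was also nearest to Zbtb7a at 0.0977, the 17th gene in order of likeness to it. Among members, Bcl11a and Lin28b were nearest to each other at 0.139, and Hmga2 and Igf2bp2 at 0.212. Many other genes were nearer: Klf1 was 62nd in order of likeness to Sox6, and Sox6 47th to Klf1. Lin28b was 576th to Bcl11a, and Bcl11a 1658th to Lin28b. Igf2bp2 was 380th to Hmga2, and Hmga2 470th to Igf2bp2. Igf2bp1 and Igf2bp3 were paired at 0.180, about the distance from Igf2bp1 to the median gene. The most distant pair was Hmga2 and Sox6 at 0.866. Over all genes the most alike were Ermap for Klf1 (0.0477), Ttc7 for Sox6 (0.0298), Atp2b4 for Zbtb7a (0.0542), Apobec3 for Bcl11a (0.0279) and Wrap53 for Lin28b (0.0244). For Hmga2 it was Amer1 (0.0514), for Igf2bp1 Klhl18 (0.0229), for Igf2bp2 Fndc3b (0.0413) and for Igf2bp3 Fubp3 (0.0501). The points share date code and depth, and a gene with little variation is near to many others, so these distances are descriptions.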

How the data were processed

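The authors deposited 1 file per liver with raw counts of reads for each Ensembl gene, without normalisation. Tools named in the submitters' processing notes are DESeq2 and TopHat2 2.0.8, with mm10 as the build; which program counted reads, on which annotation and with which strand setting, is not given in the sources. GENCODE M21 matched 37693 of 39017 identifiers, and the 1324 others held 0.198% of counts. The 5 summary lines of each file stayed out of library totals: 6.81% to 10.1% of reads fell in no gene, 3.98% to 5.94% were ambiguous and 14.1% to 22.2% were not unique. No library was a copy of another in its group.

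All 7 libraries were fitted in R 4.3.3 with edgeR 4.0.16 (filterByExpr, TMM factors, robust quasi-likelihood F test, two-sided), adjusted by Benjamini-Hochberg over 15800 genes, with a threshold of 0.05. Genotype and date code (a replicate block) were terms. Earlier results of these data had shown that the code matters and that a fit on group alone calls 0 genes, and the block was chosen with that known. The pairing comes from the codes in the titles. Deviations from group means of same-code libraries correlated at 0.40 to 0.74 across genes in 8 pairs, which are not separate checks. In groups of 2 livers deviations mirror each other, so pairs of unlike codes add nothing. For the same reason the same-code pairs of TAF10KO and WT both give 0.74. Biological variation (BCV) was 13.4% with the block and 33.9% without. The members, gene lists and markers were also chosen with earlier results known. All members and embryonic globins were named; other lists gave genes called in TAF10KO against WT, or else their most abundant gene. Log2 CPM used a prior count of 2. Each SE is the absolute log2 difference divided by the root of the F statistic. Within-code differences compare log2 CPM. The fit was tested on simulated data. Alternatives were DESeq2 1.42.0, other scaling factors, globins left out of totals, other filters, non-robust dispersions, no block, only the groups compared and each library left out. Counts limit the precision of weak genes; the weakest member value was 673 reads (Igf2bp3).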

Additional observations from a re-analysis of the deposited data

Results flagged for a closer look

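In 36 tests of whether the date difference of a gene differed between genotypes, over the 9 regulators and 3 embryonic globins, 7 passed the threshold: 2 between TAF10KO and WT, where 1.15% of all genes passed, 5 between TAF10KO and TAF10HET, where 15.4% did, and 0 between TAF10HET and WT (0.646%). The fit was added after the pattern was seen, has 1 liver per code in TAF10KO and in WT, and takes its spread from 2 TAF10HET livers alone. The call for Zbtb7a against WT was lost with DESeq2 (adjusted p = 0.999993) and median-of-ratios factors (0.0517), and that for Hmga2 with DESeq2 (0.229). Against WT, TAF10KO livers had a smaller second-minus-first date difference in Zbtb7a (−0.62 on the log2 scale) and Hba-x (−0.90). Against TAF10HET, TAF10KO livers had a smaller one in Zbtb7a (−1.01), Sox6 (−0.72), Klf1 (−0.69) and Hba-x (−1.19), and a less negative one in Hmga2 (0.39). Among the 4 livers of the second date code, the TAF10KO liver stood apart from the rest in Hba-x, with 153 CPM against 893, 847 and 801 CPM and a gap of 0.876 of the whole range, above Dixon's critical value. This was 1 of 12 genes so examined. The 4 livers differ in genotype and only this one is TAF10KO, so the flag cannot be told apart from the genotype difference in Hba-x. The TAF10KO liver of the first code was also the lowest of its code, with 113 CPM. The causes were not tested.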

How the results depend on the processing

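Counts of called genes depended strongly on the setting, and the cause was not tested. TAF10KO against WT gave 96 genes, and 589 with DESeq2, 1399 with no filter, 53 with non-robust dispersions, 0 with no replicate block, 553 with only the groups compared, and 0 to 1282 with 1 library left out. TAF10HET against WT gave 1 gene, and 9 with DESeq2, 289 with no filter, 0 with non-robust dispersions, 0 with no replicate block, 7 with only the groups compared, 3 with DESeq2 and no block, and 0 to 13 with 1 library left out. TAF10KO against TAF10HET gave 254, and 690 with DESeq2, 1498 with no filter, 0 with no replicate block, 26 with only the groups compared, 142 with DESeq2 and no block, and 16 to 1203 with 1 library left out. The date code gave 6536 genes, and 3206 to 7303 with 1 library left out; the 2 lowest counts were without WT replicate 1 (3207) and WT replicate 2 (3206).

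Of the 9 members, 0 were called between TAF10KO and WT, and 2 with no filter and 0 to 2 with 1 library left out; the same counts hold between TAF10KO and TAF10HET. With no filter, Zbtb7a (−0.34, adjusted p = 0.0129) and Igf2bp2 (0.34, adjusted p = 0.0151) were called between TAF10KO and TAF10HET. Between date codes, each of the 9 kept its direction in 14 of 14 alternatives, and Bcl11a, Sox6, Lin28b, Hmga2 and Igf2bp2 their calls as well. Klf1 passed in 12 of 14, Zbtb7a in 6, Igf2bp3 in 3 and Igf2bp1 in 0. The 6 of Zbtb7a include the fits without either TAF10KO liver, which read the date difference from the same TAF10HET and WT livers.

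Signs of small log2 differences turned, none past the threshold. With no replicate block, TAF10HET against WT gave 0.0011 for Bcl11a and −0.058 for Igf2bp2, and TAF10KO against TAF10HET 0.0044 for Igf2bp3 (0.0018 with no filter). DESeq2 with no block gave −0.0064 for Hmga2 in TAF10KO against WT, and 0.0050 for Bcl11a and −0.052 for Igf2bp2 in TAF10HET against WT. With only the groups compared, TAF10HET against WT gave −0.039 for Zbtb7a, −0.0066 for Sox6, −0.0065 for Klf1, 0.0063 for Hmga2 and −0.0046 for Hba-x. Upper-quartile factors gave 0.0036 for Bcl11a in the test of date differences between TAF10KO and WT. With 1 library left out, TAF10KO against WT ranged from −0.016 to 0.056 for Bcl11a, −0.33 to 0.19 for Sox6, −0.15 to 0.19 for Hmga2 and −0.19 to 0.044 for Igf2bp3. TAF10HET against WT ranged from −0.056 to 0.27 for Zbtb7a, −0.046 to 0.24 for Sox6, −0.052 to 0.22 for Klf1, −0.14 to 0.034 for Hmga2, −0.0029 to 0.14 for Igf2bp1, −0.12 to 0.18 for Igf2bp2, −0.13 to 0.088 for Igf2bp3 and −0.039 to 0.33 for Hba-x. TAF10KO against TAF10HET ranged from −0.76 to 0.041 for Zbtb7a, −0.32 to 0.20 for Sox6, −0.16 to 0.18 for Hmga2, −0.017 to 0.18 for Igf2bp1 and −0.10 to 0.019 for Igf2bp3. In the test of date differences, chosen after seeing the data, Hmga2 between TAF10KO and TAF10HET lost its call with DESeq2 (0.44, adjusted p = 0.229), and with no filter Zbtb7a (0.42), Sox6 (0.40) and Klf1 (0.36) passed between TAF10HET and WT. Groups of 2 and 3 livers limit all genotype comparisons.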
